A study of Drosophila melanogaster with 4 samples.

Results

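The genes described here encode accessory gland and seminal fluid proteins. They were chosen by their symbol, which begins with Acp or Sfp followed by 2 digits or with Mst57D, and the cuticle gene with an Acp65 symbol was left out. This gave 48 of the 13771 genes in the count table, namely 17 Acp genes, 28 Sfp genes and 3 Mst57D genes. RNA was sequenced from the testes of 5-day-old males of *Drosophila melanogaster*, either WT (Canton S) or mutant for *sws* (*sws1* allele). Each genotype had 2 biological replicates, and each library was made from 30 pairs of testes. *sws* encodes a phospholipase of the PNPLA6 type. No library carried a transgene, and both genotypes were kept at the same temperature on the same food. The stocks came from different sources, so the *sws1* allele and the genetic background cannot be told apart. Whether the males had mated is not given in the sources used here.

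The accessory glands are a pair of secretory glands that join the ejaculatory duct next to the seminal vesicles, in which sperm from the testes are held. Their main and secondary cells secrete most proteins of the seminal fluid. These proteins are transferred with the sperm at mating, and in the mated female they act on egg laying, sperm storage, feeding and willingness to mate again. The family includes ovulation-inducing proteins, sperm storage factors, lectins, protease inhibitors and many small peptides. Many of the Sfp genes were named from proteomic studies of seminal fluid, and for most of them no function is known. The label names a secretion of another organ than the tissue sampled, and the germline genes of the testis were abundant in every library. A list of 14 spermatid and sperm chromatin genes summed to 18340 and 17860 CPM (the count scaled to library size, with TMM factors) in WT and to 11560 and 12270 CPM in *sws1*.

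The 4 libraries held between 2218335 and 4498060 counts. *sws* itself was counted 662 and 500 times in the WT libraries against 166 and 179 times in those of *sws1*. Its log2 fold change (log2FC) of −1.28 (standard error, SE, 0.15, edgeR adjusted p = 2.12e-06) has the direction of the labels. A gene was called differentially expressed (DEG) where its absolute log2FC was above 0.3 and its adjusted p under 0.05 in edgeR's quasi-likelihood test, and only such genes are said below to have risen. Counts below are summed over the transcripts of a gene and are given in the order WT replicate 1, WT replicate 2, *sws1* replicate 1, *sws1* replicate 2.

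Transcripts of seminal fluid genes were a small part of each library, and a larger part in *sws1* than in WT. The 48 genes together had 388 and 273 counts in WT against 5136 and 1936 in *sws1*. These were 0.00863% of all counts in WT replicate 1 (Wilson 95% interval 0.00781 to 0.00953) and 0.0101% in WT replicate 2 (0.00901 to 0.0114). In *sws1* they were 0.217% in replicate 1 (0.211 to 0.223) and 0.0873% in replicate 2 (0.0835 to 0.0912). All intervals given for counts cover counting error only. On the CPM scale they summed to 91.2 and 107 in WT against 2049 and 844 in *sws1*, so that the groups did not overlap. The means were 99.0 ± 11.1 CPM in WT and 1447 ± 852 CPM in *sws1* (SD, n = 2 each), a ratio of 14.6. *sws1* replicate 1 alone was 20.7 times the WT mean, and *sws1* replicate 2 alone was 8.52 times that mean. In bulk RNA, more cells of a type, more tissue of another organ and more RNA per cell cannot be told apart.

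Of the 48 genes, 36 had both *sws1* libraries above both WT libraries, and 0 had both below. Over all genes of the table, 26.7% had both *sws1* libraries above both WT libraries. No count was found for 4 of the 48 genes in any library, and 40 of the 48 had at most 10 counts in each WT library.

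**Figure D1:**
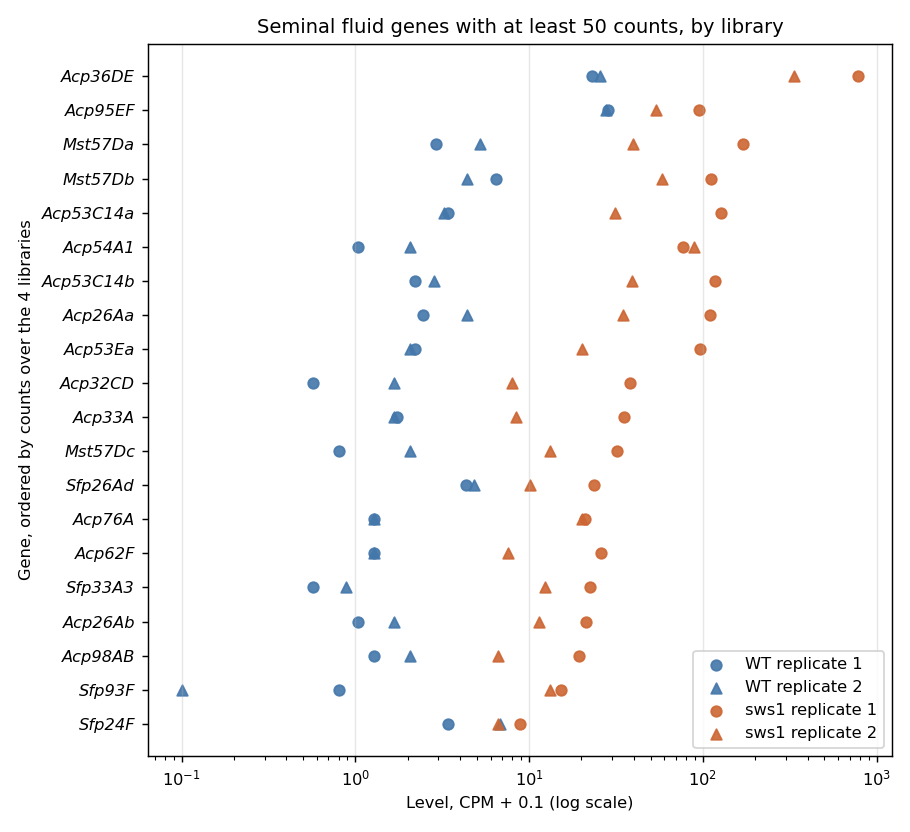
Level in CPM (with 0.1 added, log scale) of the 20 seminal fluid genes with at least 50 counts, ordered by counts over the 4 libraries, with 1 point per library (blue, WT; orange, *sws1*; circles, replicate 1; triangles, replicate 2). In every gene but *Sfp24F* both orange points lie to the right of both blue points, and in most genes *sws1* replicate 1 lies furthest to the right.

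*Acp36DE* (FBgn0011559, 2L, 18356047 to 18359028) encodes a large glycoprotein that sperm storage in the mated female requires. It had the most counts of the 48 genes, 98 and 65 in WT against 1965 and 762 in *sws1*. Both *sws1* libraries were far above WT, the first more so than the second. Mean levels were 24.2 ± 1.70 CPM in WT and 558 ± 320 CPM in *sws1* (SD, n = 2 each). The log2FC was 4.54, and the gene missed the threshold (edgeR adjusted p = 0.0807). Without *sws1* replicate 1 its log2FC was 3.79.

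*Acp26Aa* (FBgn0002855, 2L, 5892883 to 5893896) encodes ovulin, which stimulates ovulation after mating. It had 10 and 11 counts in WT against 275 and 79 in *sws1*. The pooled ratio of *sws1* to WT was 23.9 (counting interval 15.4 to 39.1), and the gene was not called (log2FC 4.52, edgeR adjusted p = 0.144). Its log2FC was 3.45 without *sws1* replicate 1 and 5.12 without *sws1* replicate 2. Its neighbour *Acp26Ab* (FBgn0002856, 2L, 5892298 to 5892862), which encodes a small peptide, lies 20 bp away on the same strand. It had 4 and 4 counts in WT against 53 and 26 in *sws1*, and it rose, with a log2FC of 3.74 (SE 0.47, edgeR adjusted p = 5.00e-06). Both genes of the pair were higher in both *sws1* libraries, and only *Acp26Ab* passed the threshold. *Acp29AB*, a lectin gene with a role in sperm storage, had 1 and 4 counts in WT against 24 and 6 in *sws1*, too few to be tested.

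Among the protease inhibitors, *Acp76A* (FBgn0015586, 3L, 19050757 to 19052026) encodes a serpin. It had 5 and 3 counts in WT against 52 and 46 in *sws1*, or 1.17 CPM in each WT library and a mean of 20.4 ± 0.494 CPM in *sws1* (SD, n = 2). The *sws1* libraries were close to each other and well above WT, and the gene rose, with a log2FC of 4.07 (SE 0.40, edgeR adjusted p = 1.18e-07). *Acp62F* (FBgn0020509, 3L, 2739750 to 2740228) encodes a trypsin inhibitor-like protein that is transferred at mating. It had 5 and 3 counts in WT, as in *Acp76A*, but 65 and 17 in *sws1*. It also rose, with a log2FC of 3.80 (SE 0.76, edgeR adjusted p = 0.0130). The log2FC of *Acp62F* was 2.62 without *sws1* replicate 1 and 4.42 without *sws1* replicate 2.

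The Acp53 genes are 4 related genes in a row on one strand of 2R (16747834 to 16751495). Together they had 33 and 20 counts in WT against 876 and 212 in *sws1*. *Acp53C14a* had 14 and 8 counts in WT against 318 and 71 in *sws1*, *Acp53C14b* had 9 and 7 against 294 and 89, and *Acp53Ea* had 9 and 5 against 241 and 46. In all of them *sws1* replicate 1 had several times the level of *sws1* replicate 2, and neither library overlapped WT. Their log2FC was 4.60 in *Acp53C14a*, 5.03 in *Acp53C14b* and 4.81 in *Acp53Ea*, with adjusted p of 0.179, 0.119 and 0.202 (edgeR). Without *sws1* replicate 1 these log2FC were 3.25, 4.02 and 3.26. Without *sws1* replicate 2 they were 5.28, 5.61 and 5.52. *Acp53C14c*, at the end of the row, had 1 and 0 counts in WT against 23 and 6 in *sws1* and was not tested.

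The Mst57D genes encode small peptides of the accessory gland and lie in a row on 3R. *Mst57Da* (FBgn0011668, 25831575 to 25831899) had 12 and 13 counts in WT against 428 and 91 in *sws1*, and was not called (log2FC 4.82, edgeR adjusted p = 0.182). That log2FC was 3.41 without *sws1* replicate 1 and 5.51 without *sws1* replicate 2. *Mst57Db* (FBgn0011669, 25830720 to 25830914) had 27 and 11 counts in WT against 278 and 133 in *sws1*. It rose from a mean of 5.32 ± 1.44 CPM to one of 84.5 ± 37.5 CPM (SD, n = 2 each), with a log2FC of 3.93 (SE 0.42, edgeR adjusted p = 0.00121). *Mst57Dc* (FBgn0011670, 25829321 to 25829698) had 3 and 5 counts in WT against 80 and 30 in *sws1*, and it rose, with a log2FC of 4.21 (SE 0.59, edgeR adjusted p = 0.000816). Its log2FC was 3.50 without WT replicate 1, 4.91 without WT replicate 2 and 3.41 without *sws1* replicate 1. All 3 genes had both *sws1* libraries above WT. *Sfp96F* lies between *Mst57Dc* and *Mst57Db* on the same strand, 362 bp from the one and 491 bp from the other, and had only 1 count, in *sws1* replicate 2.

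Among the other Acp genes, *Acp54A1* (FBgn0083936, 2R, 17133445 to 17133750) showed the largest log2FC of the 21 seminal fluid genes tested. It had 4 and 5 counts in WT against 193 and 203 in *sws1*, or 1.45 ± 0.719 and 82.8 ± 8.11 CPM (SD, n = 2 each). It rose by a log2FC of 5.91 (SE 0.29, edgeR adjusted p = 1.99e-12), with the *sws1* libraries close together. *Acp63F* had 0 and 4 counts in WT against 29 and 12 in *sws1* and rose, with a log2FC of 3.74 (SE 0.82, edgeR adjusted p = 0.00801). That value was 2.40 without WT replicate 1 and 3.02 without *sws1* replicate 1. Without WT replicate 2 no count was left in WT, so that the fitted value depends on the prior count of the fit. *Acp98AB*, with 5 and 5 counts in WT against 48 and 15 in *sws1*, rose as well, with a log2FC of 3.10 (SE 0.57, edgeR adjusted p = 0.00151), and 2.11 without *sws1* replicate 1.

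*Acp32CD* had 2 and 4 counts in WT against 95 and 18 in *sws1* (log2FC 4.64, adjusted p = 0.194, edgeR). *Acp33A* had 7 and 4 in WT and 88 and 19 in *sws1* (log2FC 3.73, adjusted p = 0.139, edgeR). Neither passed the threshold, although their libraries did not overlap between genotypes. The log2FC of *Acp33A* was 2.33 without *sws1* replicate 1 and 4.41 without *sws1* replicate 2. That of *Acp32CD* was 3.07 and 5.35 in these fits, and 3.84 without WT replicate 1 and 5.49 without WT replicate 2. *Acp24A4* had 0 counts in all 4 libraries. A count of 0 allows a level of up to 0.441 CPM in WT and 0.625 CPM in *sws1* (3 counts over both libraries).

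*Acp95EF* (FBgn0002863, 3R, 24228975 to 24229279), a gene for a small peptide, was the seminal fluid gene with the most counts in WT. It had 120 and 70 counts in WT against 239 and 123 in *sws1*. It rose from a mean of 27.8 ± 0.568 CPM to one of 74.5 ± 29.5 CPM (SD, n = 2 each), with a log2FC of 1.42 (SE 0.25, edgeR adjusted p = 0.00183). The pooled ratio of 2.70 (counting interval 2.26 to 3.24) was the smallest among the genes that rose. *Acp95EF* lies within the span of *Spase22-23*, which is on the opposite strand and was singled out after its values were seen. *Spase22-23* had 882 and 507 counts in WT against 406 and 353 in *sws1*. Without *Acp95EF* the summed level of the other genes was 71.2 ± 11.7 CPM in WT and 1372 ± 823 CPM in *sws1* (SD, n = 2 each), a ratio of 19.3.

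The Sfp genes had far fewer counts, with a median of 8 over the 4 libraries against 118 for the Acp genes and 449 for the Mst57D genes. Only 4 of the 28 could be tested, and 3 of them rose (9.38% of all genes tested were DEGs with higher expression). Of the 4, only *Sfp26Ad* reached the filter on low counts (3.96 CPM) in both WT libraries, so this count is no sign of how the Sfp genes changed. *Sfp33A3* (2L, 11839912 to 11840329) had 2 and 2 counts in WT against 56 and 28 in *sws1* (log2FC 4.78, SE 0.52, edgeR adjusted p = 7.12e-07). *Sfp93F* (3R, 21735909 to 21736296) had 3 and 0 counts in WT against 38 and 30 in *sws1* (log2FC 4.88, SE 0.56, edgeR adjusted p = 1.27e-06). As its WT level rests on 3 counts, its pooled ratio of 32.2 has a counting interval of 10.6 to 160. Its log2FC was 4.23 without WT replicate 2, and without WT replicate 1 no count was left in WT. *Sfp26Ad* (2L, 5942623 to 5943304) had 18 and 12 counts in WT against 59 and 23 in *sws1* (log2FC 1.93, SE 0.40, edgeR adjusted p = 0.00221). Without *sws1* replicate 1 its log2FC was 1.18 and it was no longer called (adjusted p = 0.0831, edgeR).

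*Sfp24F* (2L, 4441429 to 4442060) was the exception among the tested genes, with 14 and 17 counts in WT against 22 and 15 in *sws1*. Its libraries overlapped between genotypes, with 4.97 ± 2.38 CPM in WT and 7.66 ± 1.58 CPM in *sws1* (SD, n = 2 each). It was not called (log2FC 0.71, edgeR adjusted p = 0.236), and the pooled ratio was 1.69 (counting interval 1.02 to 2.82).

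The Sfp genes not tested had few counts. *Sfp51E* had 0 and 0 counts in WT against 18 and 5 in *sws1*. *Sfp24C1* (11 and 3 counts in *sws1*) and *Sfp84E* (12 and 1 counts) were also at 0 in both WT libraries. *Sfp65A* had 3 and 2 counts in WT against 36 and 6 in *sws1*, and *Sfp77F* had 0 and 2 against 15 and 7. A row of 4 genes on 2L, *Sfp24Ba*, *Sfp24Bd*, *Sfp24Bb* and *Sfp24Bc* (3667977 to 3670581), had 1 count in all, in *sws1* replicate 2. The 27 genes not tested, Acp genes included, had between 0 and 47 counts over the 4 libraries. They summed to 17 and 15 counts in WT and to 220 and 60 in *sws1*.

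The test across genes covered 9634 genes, of which 9.38% were DEGs with higher expression in *sws1* and 11.5% were DEGs with lower expression (edgeR). Of the 21 seminal fluid genes that passed the filter on low counts, 12 were DEGs with higher expression and 0 with lower expression. This count is not a sign of how the whole group changed, because 17 of the 21 reached the filter only through the *sws1* libraries. The 4 that also reached it in both WT libraries were *Acp36DE*, *Acp95EF*, *Mst57Db* and *Sfp26Ad*, and 3 of these were DEGs. In 20 of the 21 tested genes both *sws1* libraries were above both WT libraries, against 31.3% of all genes tested. An unadjusted p under 0.05 was found for 16 of the 21 and for 33.1% of all genes tested. These counts carry the same limit as the count of DEGs. DESeq2 called 23 of the 36 seminal fluid genes for which it gave an adjusted p, all of them higher in *sws1*, against 3.18% of all genes called higher and 8.7% called in either direction. The 23 included all 12 of edgeR. They also included *Sfp51E*, with 0 and 0 counts in WT against 18 and 5 in *sws1*. The seminal fluid genes without an adjusted p by DESeq2 were those with the fewest counts. Most counts of the group came from the *sws1* libraries, so 23 of 36 is no sign of how the whole group changed either. Leaving out a single library also changed how many seminal fluid genes were tested in most of these fits. The median log2FC was 3.815 over 28 genes without WT replicate 1 and 4.478 over 29 without WT replicate 2. It was 3.264 over 21 genes without *sws1* replicate 1 and 4.423 over 28 without *sws1* replicate 2. In such fits the lone library is assumed to vary like the pair of the other genotype. The lowest log2FC of the 12 DEGs in these fits was 0.9455, without *sws1* replicate 1.

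The log2FC of the 21 genes ranged from 0.71 to 5.91 with a median of 4.21, against a median of 0.02 over all genes tested. That median, too, is limited by the filter, which 17 of the 21 reached only through the *sws1* libraries. With no filter, the 44 genes with at least 1 count had a median of 3.75. Of the 10 genes with the most counts 3 were DEGs, where 9.38% of all genes tested were DEGs with higher expression. In 8 of the 9 tested genes that were not called, both *sws1* libraries were above both WT libraries, against 31.3% of all genes tested. This count has the same limit, as only *Acp36DE* of the 9 reached the filter in both WT libraries. Among the 9, the adjusted p ranged from 0.0807 to 0.236 (edgeR). All of them but *Sfp24F* were called when either *sws1* library was left out, and not when either WT library was.

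**Figure D2:**
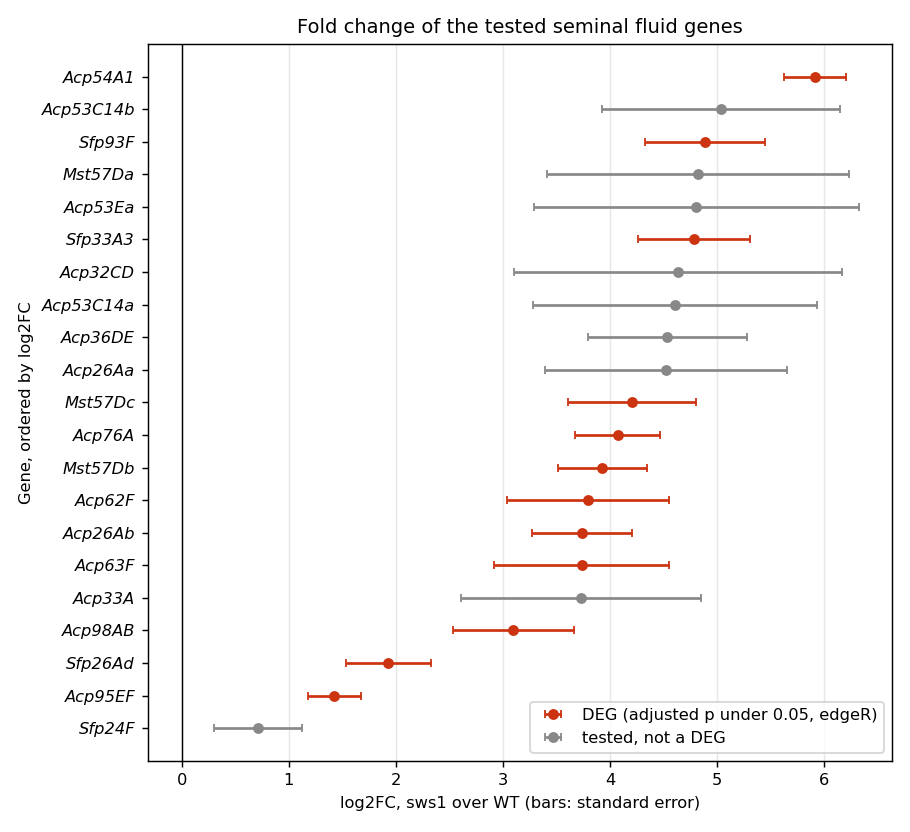
log2FC of *sws1* over WT for the 21 tested seminal fluid genes, with bars for the standard error (SE) (red, DEG; grey, not a DEG by edgeR). All points lie above 0, from 0.71 in *Sfp24F* to 5.91 in *Acp54A1*, and the grey points other than *Sfp24F* have wider bars than most red ones.

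The 2 *sws1* libraries differed in most of these genes, and replicate 1 had the higher level in 20 of the 21 tested. Over the tested genes, the level in *sws1* replicate 1 was between 0.870 and 4.83 times that in *sws1* replicate 2, with a median ratio of 2.36. Over all 9634 genes tested the median ratio was 0.992, and the central 95% of genes lay between 0.585 and 1.90. Of the 21 seminal fluid genes, 14 were above that range. For 17 of the 21 the counting interval of the ratio lay above 1. In *Acp36DE*, the gene with the most counts, the ratio was 2.36 (2.17 to 2.57). It was higher in *Acp53Ea* (4.80, 3.49 to 6.73) and *Mst57Da* (4.31, 3.43 to 5.46).

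A ratio of 1 was within the interval for 4 genes, *Acp54A1* (0.870, 0.711 to 1.06), *Acp76A* (1.03, 0.682 to 1.57), *Sfp93F* (1.16, 0.700 to 1.94) and *Sfp24F* (1.34, 0.666 to 2.78). The intervals leave out the variation between samples, so whether the genes differ in this ratio was not tested. Between the WT replicates, the interval of the ratio excluded 1 for only 1 of the 21 genes, *Acp63F*, at much lower counts.

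**Figure D3:**
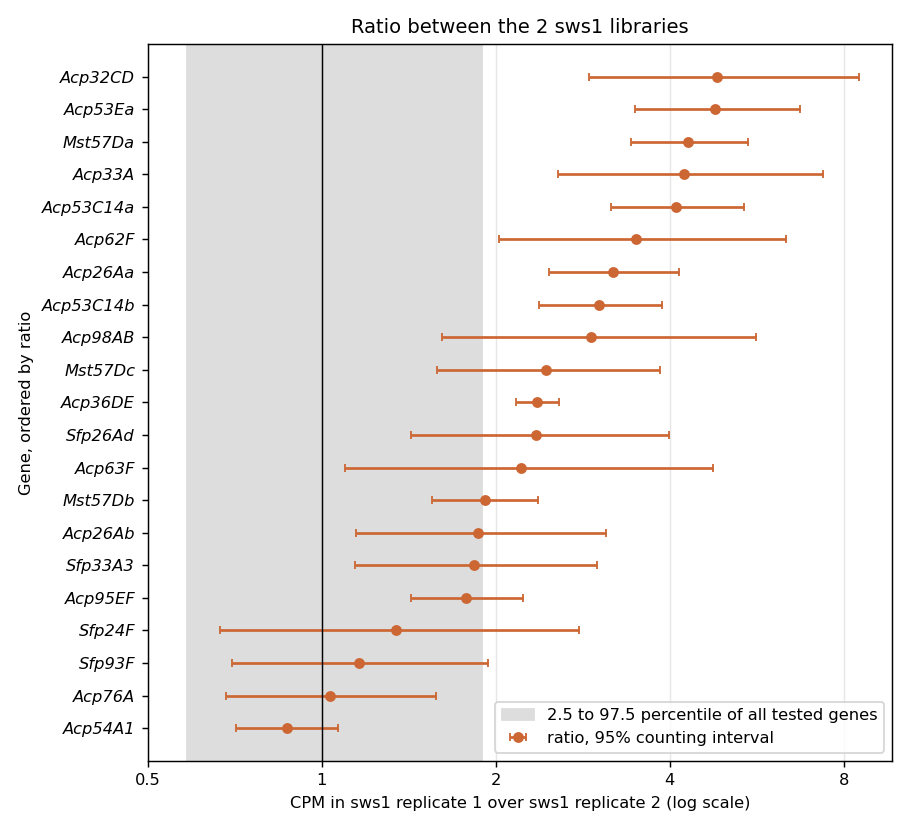
Ratio of CPM in *sws1* replicate 1 to CPM in *sws1* replicate 2 (log scale) for the 21 tested seminal fluid genes, with 95% counting intervals. The grey band holds the central 95% of all tested genes, 0.585 to 1.90. Most genes lie to the right of the band, and *Acp54A1*, *Acp76A*, *Sfp93F* and *Sfp24F* lie near 1.

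Compared per length, as CPM per kb of exon, the order of the levels in *sws1* was led by *Mst57Db* (433), *Mst57Da* (324), *Acp95EF* (306) and *Acp54A1* (270), followed by *Acp36DE* (191). Neighbours among these 5 genes do not differ beyond the larger of their SDs between the *sws1* replicates. In WT, *Acp95EF* led with 114 CPM per kb, and *Mst57Db* came next with 27.3, apart by more than their SDs. *Acp54A1* had 4.73 CPM per kb in WT and stood at place 8 there against place 4 in *sws1*. *Acp36DE* took 25.3% and 23.8% of the counts of the 48 genes in WT and 38.3% and 39.4% in *sws1*. The share of *Acp95EF* was 30.9% and 25.6% in WT and 4.65% and 6.35% in *sws1*. Across the 48 genes, log2(CPM + 0.5) in *sws1* replicates 1 and 2 had a Pearson r of 0.93, and WT replicate 1 had an r of 0.78 with *sws1* replicate 1. These correlations are across genes of shared libraries and are given only as a description.

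Other seminal fluid genes, listed by name rather than by the symbol rule, were also mostly higher in *sws1*. Of the 28 genes of this list, 27 had both *sws1* libraries above both WT libraries, against 26.7% of all genes. Of the 16 tested, 10 were DEGs with higher and 0 with lower expression, against 9.38% and 11.5% of all genes tested. Only 2 of the 16 reached the filter on low counts in both WT libraries, so that this count, too, is no sign of how the list changed. They summed to 58.0 and 86.9 CPM in WT against 1084 and 564 CPM in *sws1*. *SP*, which encodes the sex peptide that lowers the female's willingness to mate again, had 1 and 1 counts in WT against 46 and 9 in *sws1* (adjusted p = 0.0244, edgeR). *Dup99B*, a related peptide gene of the ejaculatory duct, had 4 and 10 counts in WT against 205 and 94 in *sws1* (adjusted p = 0.0272, edgeR). In the serpin gene *Spn77Bc* (18 and 33 counts in WT, 533 and 489 in *sws1*) and in *Obp51a*, which encodes an odorant-binding protein (4 and 7 against 67 and 76), the *sws1* libraries were close to each other. *Spn77Bc* and *Obp51a* both rose, with log2FC of 4.78 and 4.16 (adjusted p = 0.000462 and 3.46e-08, edgeR).

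Markers of other organs of the male tract moved with these genes. Of 6 ejaculatory duct and bulb genes in the table, 4 were tested and all 4 were DEGs with higher expression (9.38% of all genes tested). Of the 4, 3 reached the filter on low counts in both WT libraries, and all 3 were DEGs. *Anp*, with 2 and 0 counts in WT against 75 and 82 in *sws1*, reached it only through the *sws1* libraries. The list summed to 92.1 and 89.6 CPM in WT against 468 and 487 CPM in *sws1*. *Est-6*, an esterase gene of the ejaculatory duct, had 34 and 39 counts in WT against 492 and 530 in *sws1*, a log2FC of 4.28 (SE 0.22, edgeR adjusted p = 1.60e-09). The *sws1* libraries were nearly equal in the sum of this list, with a ratio of replicate 1 to replicate 2 of 0.960, whereas the sum of the 48 seminal fluid genes had a ratio of 2.43. Single genes depart from these sums. *Dup99B*, the duct gene counted in the list above, had 81.8 and 41.0 CPM in *sws1*. Of the 21 tested seminal fluid genes, 17 had a counting interval of this ratio above 1, and 4 had one that included 1. The bulb genes *Ebp* and *EbpII* had at most 6 counts in any library. Of 4 regulators of the accessory gland, 3 were tested and 1 was a DEG with higher expression (9.38% of all genes tested). This was *prd*, which the gland requires to form, with 3 and 6 counts in WT against 18 and 10 in *sws1* (log2FC 2.08, adjusted p = 0.0110, edgeR). *prd* did not reach the filter on low counts in both WT libraries, so this count is no sign of how the list changed. The only regulator that did reach it there was not a DEG, and the 3 regulators other than *prd* were not DEGs. *Abd-B* had a log2FC of −0.14 and *vvl* one of 0.81, and *dve*, with at most 4 counts in a library, was not tested. The part of these organs in the result was not tested.

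The summed levels of the fat body, muscle, hemocyte, midgut and neuronal lists moved less. The sums were 370 and 334 CPM in WT against 676 and 636 CPM in *sws1* for 10 fat body genes, 1017 and 1133 against 1290 and 1181 CPM for 11 muscle genes, and 225 and 165 against 192 and 207 CPM for 7 hemocyte genes. The fat body and muscle sums did not overlap between genotypes and were higher in *sws1*. The midgut sum, given below, did not overlap either and was lower in *sws1*. Most of the fat body sum was *apolpp*, a DEG with higher expression, and the other 9 genes, none of them a DEG, summed to 34.5 and 41.9 CPM in WT against 25.5 and 52.7 CPM in *sws1*. Of the 10 muscle genes tested, 3 were DEGs with higher expression and 0 with lower, against 9.38% and 11.5% of all genes tested. The sums of 10 midgut and 6 neuronal genes were 378 and 302 CPM and 131 and 95.1 CPM in WT, and 298 and 221 CPM and 104 and 88.9 CPM in *sws1*. Within the testis, 12 of the 14 spermatid and sperm chromatin genes were DEGs with lower expression (11.5% of all genes tested), and the list had a median log2FC of −0.56. Of 11 spermatocyte genes, 3 were DEGs with lower and 1 with higher expression, and of 8 cyst cell and hub genes 2 were DEGs with higher expression, where 11.5% of all genes tested were lower and 9.38% higher. Of these 8 genes, 7 reached the filter on low counts in both WT libraries, and 1 of the 7 was a DEG.

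**Figure D4:**
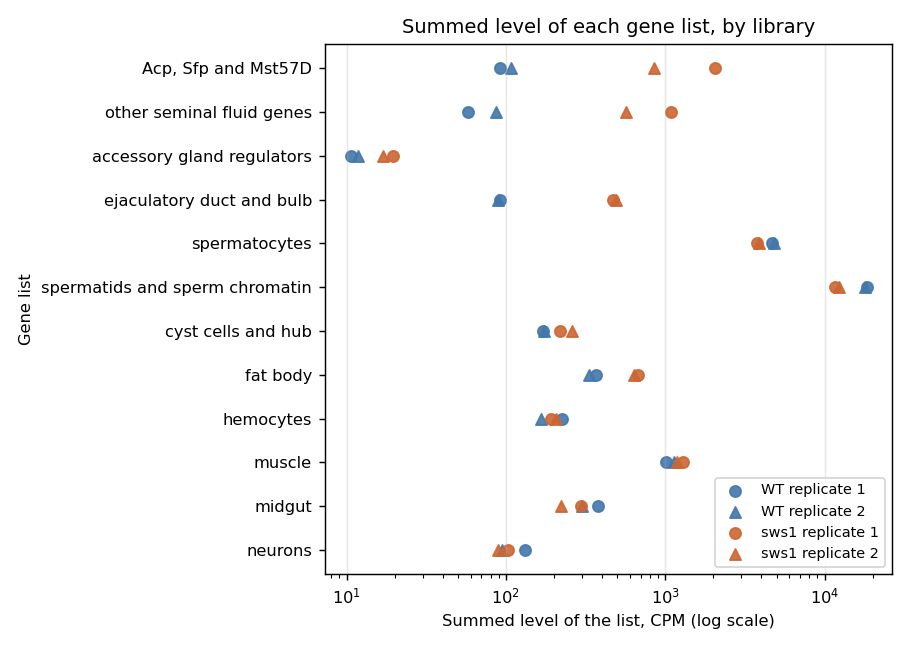
Summed level in CPM (log scale) of the 48 seminal fluid genes and of each of the other gene lists, with 1 point per library (blue, WT; orange, *sws1*; circles, replicate 1; triangles, replicate 2). The seminal fluid lists and the ejaculatory duct and bulb list are separated most between genotypes, and the *sws1* replicates stand apart in the seminal fluid lists but not in the ejaculatory duct and bulb list.

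Of the 48 genes, 16 overlapped a gene on the opposite strand, among them *Acp36DE* with *Fas3*, *Acp62F* with *Mrtf* and *Acp63F* with *Scsalpha1*. *Fas3*, singled out after its values were seen, had 155 and 119 counts in WT against 156 and 179 in *sws1* (log2FC 0.77, edgeR adjusted p = 0.00345). The libraries were directional, but the strand setting of the counting is not given in the sources used here. Among the 14 tested genes that overlap no other gene, 8 were DEGs with higher expression (9.38% of all genes tested). Of these 14, only 2 reached the filter on low counts in both WT libraries, and both were DEGs. The 48 genes had 68 transcripts in the table. On transcripts as deposited, edgeR called 0 of 25 tested transcripts of these genes (0.0% of all 14158 transcripts tested were called higher). An unadjusted p under 0.05 was found for 19 of the 25, against 17.1% of all transcripts tested, and the smallest adjusted p was 0.0994, in *Acp54A1* and *Acp76A*. In *Acp36DE* the longer transcript had 0 and 0 counts in WT against 246 and 137 in *sws1*, and the shorter had 98 and 65 against 1719 and 625.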

How the data were processed

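Testis RNA of 2 WT and 2 *sws1* samples was depleted of ribosomal RNA and read from both ends of each fragment (150 bp). Trimming by Trimmomatic, mapping by Hisat2 and counting per transcript by htseq-count were done by the authors. The deposited table holds whole-number counts without normalization. The release of the reference and the strand setting are not given in the sources used here. Transcripts were matched by FlyBase identifier to the BDGP 6.54 annotation (Ensembl release 115), which gave all coordinates. Counts were summed per gene, without 10 of the 29939 transcripts, which had no match.

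The comparison of *sws1* with WT used edgeR 4.0.16 in R 4.3.3 (filterByExpr, TMM scaling, robust quasi-likelihood test, genotype as the only term), with Benjamini-Hochberg adjustment over all genes tested. filterByExpr kept genes with at least 3.96 CPM in 2 libraries. DEGs passed the study's thresholds, 0.05 for the adjusted p and 0.3 for the absolute log2FC. The SE was obtained from the log2FC and the square root of its F statistic. Ratios of pooled counts have exact 95% conditional binomial intervals. The fits were also run on simulated data, in which only genes with at least 50 counts over the 4 libraries were changed. That run does not speak for genes with WT counts as low as those of most seminal fluid genes. The labels do not tie libraries of the same replicate number to each other, and the main fit did not pair them. The correlation of the deviations of same-numbered libraries was −0.00767 over 9634 genes. With 2 libraries per genotype, this value cannot show whether such libraries shared a batch.

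Genes with at least 50 counts over the 4 libraries, DEGs and genes of known function were named, with full statistics for at most 12 DEGs. Of other genes, only *sws*, DEGs of the gene lists and *SP*, *Dup99B*, *prd* and *Est-6* were to be named, and overlapping genes, *Ebp*, *EbpII*, *Abd-B*, *vvl*, *dve*, *Acp53C14c* and the Sfp genes with under 50 counts were added after their values were seen. The genes and lists were chosen with earlier results of these data known. Of the names listed, 1 duct and bulb and 1 spermatocyte name did not match a gene. The alternatives were DESeq2 1.42.0, other scalings and filters, a replicate block, transcripts in place of genes, and leaving out each library. No sequences are shown.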

Additional observations from a re-analysis of the deposited data

How the results depend on the processing

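All 196 log2FC values of the 21 seminal fluid genes under 10 alternative fits were above 0. DESeq2 gave 994 DEGs among 11419 genes, against 2013 of 9634 by edgeR. Among the seminal fluid genes it gave 23 of 36, against 12 of 21 by edgeR, and both counts carry the limit given above. With no filter 21 of 44 seminal fluid genes were DEGs, beside 2209 of all 12920 genes. With at least 10 counts in every library 3 were, because only 7 of them were then tested, beside 1820 of all 8842 genes. On transcripts as deposited, 0 of 14158 transcripts passed the thresholds, the 25 of seminal fluid genes included. The variation between replicates in that fit (square root of edgeR's common dispersion) was 0.6065, against 0.1057 in the main fit. With the replicate number as a block, which the labels do not tie to a shared batch, 20 of 21 seminal fluid genes were DEGs, beside 2104 of all 9634 genes. Other scalings left the number at 12. Leaving out 1 library gave 15 to 27 DEGs among the seminal fluid genes, with a median log2FC of 3.26 to 4.48, and 1394 to 1905 DEGs over all genes. Apart from the fits with fewer genes or libraries, the cause of these shifts was not tested. The summed level in *sws1* was 844 CPM without replicate 1 and 2049 CPM without replicate 2. Upper-quartile factors moved the median log2FC of all genes from 0.02 to 0.07.

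With 2 libraries per genotype, 1 library can decide a call, as in *Sfp26Ad*. In WT most of these genes had at most 10 counts, so their fold changes rest on few reads.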
